A study of Mus musculus with 15 samples.

Results

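Ischaemic preconditioning (IPC) means that an organ is made ischaemic and reperfused for a short time before a longer ischaemia. It is known to lessen the injury that follows when blood returns to the liver. Ischaemia-reperfusion deprives hepatocytes of oxygen and energy, and the return of oxygen brings oxidants, unfolded protein and an innate immune response. Cells that lack oxygen stabilise hypoxia-inducible factors, which raise genes of glucose use, vessel growth and iron uptake, while misfolded protein raises chaperones. The comparison described here asks what preconditioning changed in the RNA of livers that then went through the same long ischaemia and reperfusion.

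It rests on 10 one-colour arrays of liver RNA from C57BL/6 mice, 5 of the preconditioned group (IPC) and 5 of the group with ischaemia-reperfusion alone (I/R), out of 15 arrays in the series. The arrays were chosen by their labels alone. Under sodium pentobarbital anaesthesia, mice of both groups had the left lateral and median lobes, 70% of the liver, made ischaemic with a clip for 75 min, and reperfusion lasted 2 h. In the IPC group a short cycle came first, with ischaemia and then reperfusion lasting 10 min each. The other 5 arrays are of sham mice, whose abdomen was opened and hepatic hilum handled with no vessel clamped. Their levels are given beside the others, and limma's test drew its estimate of the spread from all 15 arrays unless another setting is named. The labels used here give no age or sex and do not say which lobe was sampled. The design text counts 18 mice, 6 per group, but no label says which mouse an array came from. The p-values therefore reflect how far these arrays differ, and that spread may be technical. Liver RNA is a mixture of cell types, and fewer cells of a type cannot be told apart from less RNA per cell.

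The arrays lay on 2 slides, told apart by their scan time. All 5 IPC arrays and I/R arrays 4 and 5 shared slide 1, while I/R arrays 1 to 3 and all sham arrays were on slide 2. Slide and treatment are therefore partly mixed, and values for the 7 arrays of slide 1 alone are given beside the results. IPC and sham arrays share no slide. Wherever IPC is described as near to or far from sham, treatment and slide cannot be told apart. The 75th percentile of the signal was 8.37 ± 0.228 (log2; SD) on I/R arrays and 8.63 ± 0.0988 on IPC arrays (exact permutation test, two-sided p = 0.0476), and 54.2% ± 3.98 against 57.4% ± 1.82 of probes were well above background (exact permutation p = 0.151). The percentile followed the slide: I/R arrays 4 and 5 were at 8.68 and 8.48 and IPC arrays at 8.54 to 8.78, while on slide 2 I/R arrays 1 to 3 were at 8.08 to 8.31 and sham arrays at 8.23 to 8.31. No spot was saturated. Of the pairs within the I/R and IPC groups, I/R arrays 1 and 2 had the smallest difference, with a median difference of 0.0401 over bright probes and 1.28 spot standard errors over the named genes, against 1.74 to 13.1 spot standard errors for the other pairs. They differed by over 2 spot standard errors in 4 of 15 genes. This does not tell separate mice from repeated arrays of 1 RNA: the labels name each as a sample of its own, so they were kept apart, and counts with both averaged are given in the closing section.

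Levels are log2 signals minus the array's 75th percentile, so that a level of 0 is the brightness at that percentile, and a difference of 1 is a doubling. Of 34985 probes bright enough to be tested, 2750 (7.86%) passed limma's test at a Benjamini-Hochberg adjusted p of 0.05, 1218 higher in IPC (3.48%) and 1532 lower (4.38%). A RefSeq accession in the files names the gene of 15 tested probes, each printed as 20 spots. No table used here pairs the other 34970 with a gene. Of the 15 genes, 2 rose in IPC, none fell and 13 did not pass. Their differences from I/R had a median of 0.06, against 0.01 over all tested probes.

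Tfrc, the transferrin receptor by which cells take up iron and a known target of hypoxia-inducible factor, was the named gene that rose most clearly. On the IPC arrays its level was 4.89, 4.90, 4.80, 4.96 and 4.90, and on the I/R arrays 4.53, 4.55, 4.59, 4.37 and 4.49. Every IPC array lay above every I/R array, as for 3.93% of all tested probes (8.37% in either direction). The means were 4.89 ± 0.0593 in IPC and 4.51 ± 0.0822 in I/R (SD, n = 5 each), a difference of 0.38 ± 0.0499 (SE), 1.31-fold, with a limma adjusted p of 0.000265. An exact permutation test of the 5 against 5 arrays gave the smallest p it can, 0.00794. Sham arrays were lower than both, at 4.24 ± 0.0497.

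The rise of Tfrc was larger on the shared slide. I/R arrays 4 and 5 had a mean of 4.43, so that the difference within slide 1 was 0.46 (limma adjusted p = 0.0275), while against I/R arrays 1 to 3, on the other slide, it was 0.33. The 20 spots of Tfrc on an array had a median SD of 0.0389, which puts the error of an array's mean near 0.00869, well under the SD between arrays. The call was kept in all 28 alternatives tried, with differences from 0.32 to 0.46 and a highest adjusted p of 0.0421.

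Hypoxia-inducible factors bind DNA at sites whose core is ACGTG, and the promoter of Tfrc is shown because this gene carries the clearest named change. RefSeq gives Tfrc a pair of overlapping promoter windows on GRCm38.p6, each from 250 bases before to 50 bases after a transcript start. The second window lies at chr16:32608872-32609171 on the plus strand and is printed 5′ to 3′ with the core in capitals:

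Tfrc: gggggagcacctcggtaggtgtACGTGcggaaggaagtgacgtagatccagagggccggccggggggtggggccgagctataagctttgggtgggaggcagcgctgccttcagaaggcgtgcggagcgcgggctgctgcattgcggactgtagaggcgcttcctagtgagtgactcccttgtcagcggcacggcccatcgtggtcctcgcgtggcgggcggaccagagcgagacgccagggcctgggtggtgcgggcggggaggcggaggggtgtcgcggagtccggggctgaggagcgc

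The same ACGTG stands at base 23 of this window and at base 249 of the other one, chr16:32608646-32608945, counted from the first base of each. It was searched on both strands, as ACGTG and CACGT, which overlap where the sequence is CACGTG. Of 32851 promoter windows of this length, 19.6% held it. Among the named genes, 13 matched the table by symbol, with 14 windows. Hsp90ab1 and Actb were not matched and were not searched. Of the windows 6 held it: both of Tfrc and those of G6pd2, Gapdh, Gk and Rpl13a, none of which passed. A match describes the letters only.

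**Figure D1:**
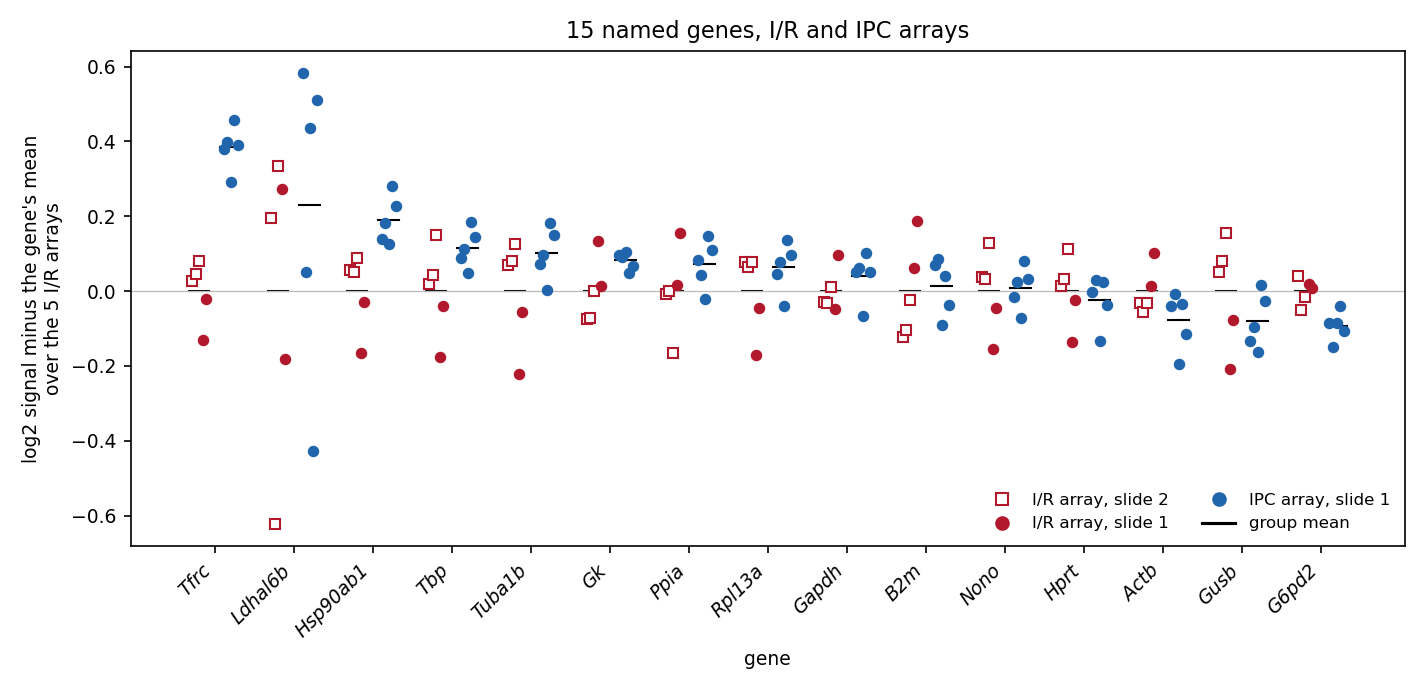
Level of each of the 15 named genes on every I/R array (red) and IPC array (blue), as log2 signal minus the gene's mean over the 5 I/R arrays; open squares are slide 2, filled circles slide 1, and black lines the group means. Tfrc and Hsp90ab1 are the genes whose IPC arrays all lie above all I/R arrays, with mean differences of 0.38 and 0.19.

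Hsp90ab1, a cytosolic HSP90 chaperone that folds kinases and receptors, rose by a smaller amount. Its level was 5.65, 5.69, 5.63, 5.79 and 5.74 on the IPC arrays and 5.57, 5.56, 5.60, 5.34 and 5.48 on the I/R arrays. The groups did not overlap, but IPC array 3 and I/R array 3 differed by little. The difference was 0.19 ± 0.0546 (SE), 1.14-fold, with a limma adjusted p of 0.0476 and an exact permutation p of 0.00794. Sham arrays stood at 5.79 ± 0.0497, against 5.70 ± 0.0636 in IPC and 5.51 ± 0.102 in I/R.

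This call is fragile. Of 28 alternatives 8 kept it, and the adjusted p ranged from 0.0017 to 0.499. The adjusted p without a single IPC array, or without I/R array 1, 2, 4 or 5, was 0.0534 to 0.114, with differences of 0.15 to 0.21, and without any 1 sham array it was 0.058 to 0.0626. Median scaling gave 0.13 with an adjusted p of 0.499. With the 10 IPC and I/R arrays alone the difference was 0.19 with an adjusted p of 0.128. Within slide 1 the difference was larger, 0.29, with an adjusted p of 0.0941, and with slide as a block the adjusted p was 0.0104. Ppia, cyclophilin A, an enzyme that turns proline bonds during folding, was the other folding gene measured, at 8.52 ± 0.0649 in IPC and 8.45 ± 0.114 in I/R (difference 0.07, adjusted p = 0.542). Within slide 1 its difference was -0.01.

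The cytoskeleton genes did not pass. Actb, cytoplasmic beta-actin, had levels of 5.85 to 6.03 on IPC arrays and 5.98 to 6.14 on I/R arrays, with a difference of -0.08 (95% interval -0.18 to 0.03, adjusted p = 0.423) and of -0.14 within slide 1 (adjusted p = 0.344). Sham arrays were lower, at 5.42 ± 0.0521, so that Actb in IPC lay close to its level in I/R and apart from sham. Tuba1b, an alpha-tubulin of microtubules, differed by 0.10 (interval -0.04 to 0.24, adjusted p = 0.432). Here the I/R arrays split by slide: arrays 4 and 5 stood at 5.55 and 5.71, and arrays 1 to 3 at 5.84 to 5.90. The IPC arrays ranged from 5.77 to 5.95. With slide as a block Tuba1b differed by 0.24 and passed (adjusted p = 0.0369), while against I/R arrays 1 to 3 the difference was 0.01.

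The metabolic genes did not pass either. Gapdh, an enzyme of glycolysis, stood at 8.37 ± 0.0637 in IPC and 8.33 ± 0.0585 in I/R, a difference of 0.04 (interval -0.06 to 0.14, adjusted p = 0.705) and of 0.02 within slide 1, with sham at 8.57 ± 0.0597. Its sign turned to -0.03 under quantile normalization and to -0.02 under median scaling. Gk, glycerol kinase, which feeds glycerol into the liver's glucose and lipid synthesis, differed by 0.08 (adjusted p = 0.38) and by 0.00906 within slide 1, and its IPC arrays were unusually close together, from 0.16 to 0.22 against 0.04 to 0.25 in I/R. G6pd2, a retrogene copy of glucose-6-phosphate dehydrogenase, was the gene nearest to a fall. Its IPC levels were -1.15 to -1.04 and its I/R levels -1.05 to -0.96, a difference of -0.09 (interval -0.18 to -0.01) with an exact permutation p of 0.0159. Within slide 1 the difference was -0.11. In limma's test over all probes its adjusted p was 0.185, and it was 0.0788 to 0.355 over the alternatives. Ldhal6b, a testis-type lactate dehydrogenase copy, differed by 0.23 (0.18 within slide 1), the second highest value among the genes, but its error was also the widest, with an SE of 0.256 and a median SD of 0.763 between the spots of an array.

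The genes of transcription and translation showed the slide split of Tuba1b, as did Tfrc, Hsp90ab1, Hprt and Gusb. Tbp, the TATA-binding protein that starts transcription, differed by 0.12 (adjusted p = 0.268), Rpl13a, a ribosomal protein, by 0.06 (0.582) and Nono, a nuclear RNA-binding protein, by 0.01 (0.949). On slide 1 alone these differences were 0.22, 0.17 and 0.11, and against I/R arrays 1 to 3 they were 0.04, -0.01 and -0.06. With slide as a block Tbp passed (adjusted p = 0.0325). Over all named genes, I/R arrays 4 and 5 had the lower mean in 8 and the higher mean in 7 compared with I/R arrays 1 to 3. The 8 were Tbp, Rpl13a, Nono, Tuba1b, Hprt, Gusb and both called genes, Tfrc and Hsp90ab1.

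Of the remaining reference genes, Hprt, which recycles purines, differed by -0.02 (adjusted p = 0.855), Gusb, a lysosomal glucuronidase, by -0.08 (0.554) and B2m, which joins every MHC class I molecule at the cell surface, by 0.01 (0.941). Within slide 1 each of these values had the opposite sign, 0.06 for Hprt, 0.06 for Gusb and -0.11 for B2m, and none passed. Their 95% intervals reached -0.13 to 0.09, -0.22 to 0.06 and -0.13 to 0.16. Of 10 genes listed as common reference genes 9 were measured and none passed. The hypoxia and iron list had 1 of 12 members among the tested probes, Tfrc. Pgk1, also on that list, was measured only by the control spots described next. Its IPC minus I/R difference was 0.05 at the 3′ end (exact permutation p = 0.135) and -0.06 at the 5′ end (exact permutation p = 0.516). Within slide 1 these were 0.04 (exact permutation p = 0.619) and 0.10 (exact permutation p = 0.238). The heat shock and folding list had 2 of 9, Hsp90ab1, which rose, and Ppia, which did not pass. Lists of inflammation (8 genes), oxidative stress (6) and immediate early genes (5) had no member that the files name. The same held for markers of hepatocytes, Kupffer cells, neutrophils, sinusoidal endothelium, stellate cells, cholangiocytes and red cells, so that the labelled tissue was not checked against markers here.

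Control spots held probes near both ends of Gapdh and of Pgk1, another glycolytic enzyme. What their differences say of RNA integrity was not tested. Their 10 spots per probe were not part of the test and were not recomputed under other scalings. Gapdh at its 3′ end had a level of 7.28 ± 0.0726 in IPC and 7.17 ± 0.12 in I/R (SD over 5 arrays), which is 0.12 apart (exact permutation p = 0.0952), and at its 5′ end 6.70 ± 0.0393 and 6.58 ± 0.117, a difference of 0.11 (exact permutation p = 0.0397). The 3′ minus 5′ difference of Gapdh was 0.59 in IPC and 0.58 in I/R (exact permutation p = 0.992), against 0.93 in sham. For Pgk1 the 3′ minus 5′ difference was 7.86 in IPC and 7.75 in I/R (exact permutation p = 0.206), against 7.60 in sham. Its 5′ probe was dim in every group, at -0.42 in IPC, -0.37 in I/R and -0.08 in sham. The 3′ probe of Pgk1 stood at 7.43, 7.38 and 7.52 in these groups. In the 3′ minus 5′ difference, sham thus lay above both groups for Gapdh and below both for Pgk1. Within slide 1 the IPC minus I/R values of these differences were -0.10 for Gapdh (exact permutation p = 0.143) and -0.06 for Pgk1 (p = 0.429), where no p under 0.0476 is possible.

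Most of the changes in the transcriptome were small. The 1218 probes higher in IPC rose by a median of 0.32, 1.25-fold, and the 1532 lower ones fell by a median of 0.33 in size, 1.26-fold. Of the rises, 363 were under 1.2-fold, 715 from there to 1.5-fold, 110 up to 2-fold and 30 (0.0858%) at least 2-fold. The falls were 416, 942, 152 and 22 (0.0629%) in these classes. At least 3-fold by measured signal, 5 rose and 4 fell. These rises and falls include probes well above background in 1 group only, whose fold has only a lower bound, as described below. Among the falls of at least 3-fold, such probes had bounds of 2.66-fold (the largest fall), 2.41-fold and 1.72-fold. Among the rises of that size, such a probe had a bound of 2.18-fold. Of the named rises, Tfrc at 1.31-fold lay above the median rise and Hsp90ab1 at 1.14-fold below it.

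**Figure D2:**
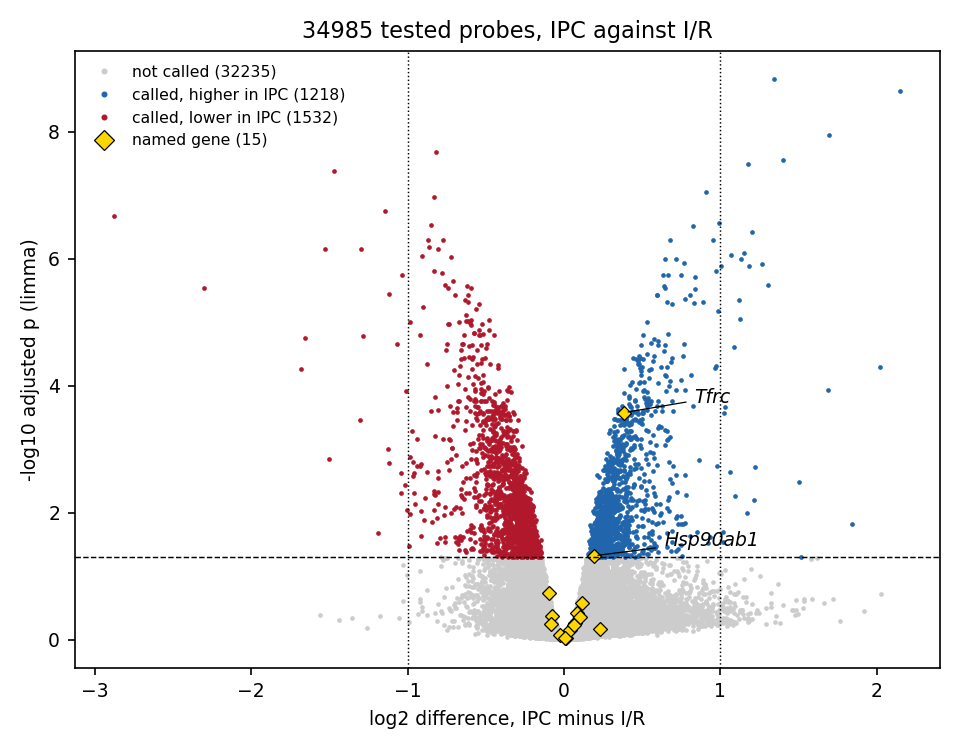
Log2 difference IPC minus I/R (horizontal axis) against -log10 of limma's adjusted p (vertical axis) for the 34985 tested probes. The dashed line is the threshold of 0.05 and dotted lines mark 2-fold; 1218 probes are called higher (blue) and 1532 lower (red), and the 15 named genes (gold diamonds) lie near the centre except Tfrc and Hsp90ab1.

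Calls depended on brightness. Among the dimmest 6997 probes, with mean levels under -2.29, 3.07% passed, and their median change was 0.56. Among the 6997 with levels from 0.20 to 2.25, 11.3% passed with a median change of 0.30, and among the brightest, 10.2% with 0.28. The median SE fell from 0.204 to 0.0638 from the dimmest to the brightest of these 5 classes, so that a dim probe had to change more to pass. The spread between arrays was also unequal: the median SD per probe was 0.173 in I/R, 0.123 in IPC and 0.133 in sham, and 0.121 for I/R arrays 1 to 3 taken alone.

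The direction balance moved with the handling of slide and scale. Of the calls, 44.3% were higher in IPC. With slide as a block 2549 probes passed (7.29%), 1560 higher (4.46%) and 989 lower (2.83%), so that 61.2% of calls were higher. On the 7 arrays of slide 1 there were 888 calls (2.54%), of which 469 were higher (1.34%) and 419 lower (1.2%), or 52.8% higher. Median scaling left 324 higher and 1073 lower (23.2%). The direction with more calls thus differed between settings. All 2750 had the same sign against I/R arrays 4 and 5 as against I/R arrays 1 to 3, though these arrays were also used to choose them. Risen probes had a median difference of 0.35 from the I/R arrays on their own slide and 0.29 from those on the other, and fallen probes -0.27 and -0.38. Of the 2750, 635 passed both with slide as a block and within slide 1, 382 of them higher and 253 lower. Both settings give a probe the same difference, since only I/R arrays 4 and 5 share a slide with IPC. They differ in the error alone, so that their shared direction is fixed and is no separate support.

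**Figure D3:**
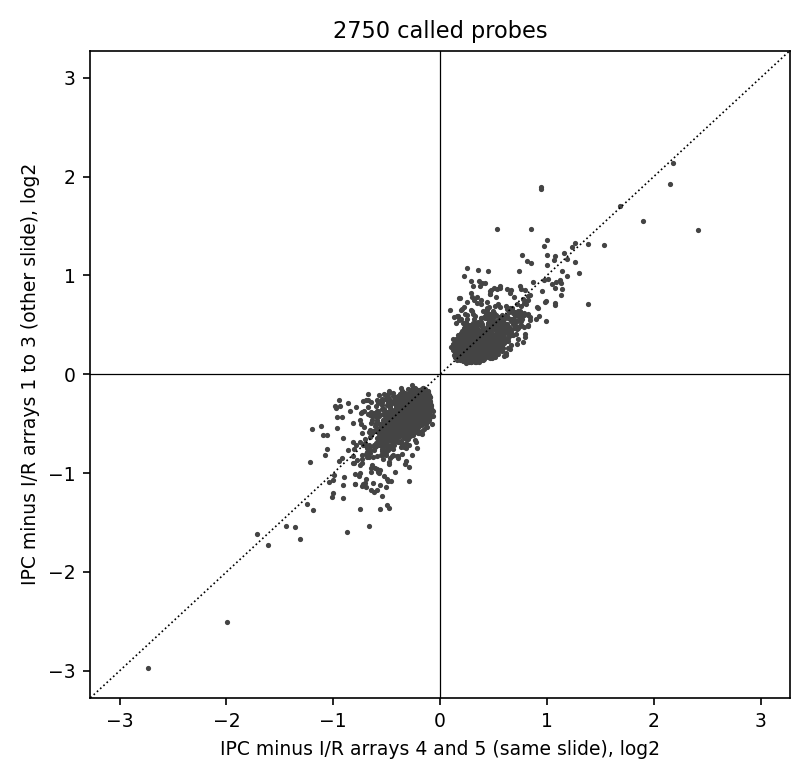
For each of the 2750 called probes, the log2 difference of the IPC mean from I/R arrays 4 and 5 on the same slide (horizontal axis) and from I/R arrays 1 to 3 on the other slide (vertical axis); the dotted line marks equality. All points lie at upper right or lower left, and both axes share the IPC arrays.

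In the 27 alternatives that test at least the same probes, 438 probes passed in 1 direction throughout, 210 higher and 228 lower in IPC. They held 20 of the 30 rises and 16 of the 22 falls of at least 2-fold. Leaving out any 1 of the 10 arrays of the comparison kept 1714 calls, 752 higher and 962 lower. I/R array 4 had the largest single influence on large changes: without it, 98 probes passed at 2-fold or more instead of 52 (0.149%), 64 higher and 34 lower.

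The 52 probes with at least 2-fold changes were mostly dim. The 30 that rose had a median level of -1.98 in I/R and -0.71 in IPC, and 15 of them were well above background on all 10 arrays. The 22 that fell went from a median of -2.05 to -3.18, and 8 were above background throughout. The split by direction turned with the setting: with slide as a block 30 rose and 49 fell at this size, on slide 1 alone 31 and 43, and under quantile normalization as under median scaling 24 and 33. Of the 30 rises and 22 falls given first, 28 and 22 had groups that did not overlap, against 8.37% of all tested probes. The same arrays were used to choose them by size and call. Among them, 17 rises and 13 falls kept a 2-fold difference against both sets of I/R arrays.

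Among probes measured on all 10 arrays, the largest rise belonged to ASMM10P016001, whose gene is not named here. It read 7.77, 7.71, 7.31, 7.65 and 7.66 on the IPC arrays and 5.42, 5.48, 5.55, 5.38 and 5.51 on the I/R arrays. The I/R values span little over the whole group and both slides, and IPC stood 2.15 ± 0.0765 (SE) higher, 4.44-fold (limma adjusted p = 2.25e-09). Within slide 1 the difference was 2.18 (adjusted p = 0.00319). The sham level, all from slide 2, was 7.21 ± 0.063, close to IPC and far from I/R.

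The second rise, ASMM10P031364, followed the same order of groups. Its levels were 5.45 to 5.63 in IPC, 3.75 to 4.00 in I/R and 4.94 to 5.27 in sham, so that no groups overlapped. The IPC minus I/R difference was 1.69 ± 0.0698 (SE), 3.23-fold (limma adjusted p = 1.11e-08), and it was 1.68 within slide 1 (adjusted p = 0.00296).

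Falls of the same rank were seen for ASMM10P000943 and ASMM10P023343. ASMM10P000943 read -0.27, -0.31, -0.28, -0.54 and -0.26 in I/R and -1.75, -2.31, -1.62, -2.66 and -1.72 in IPC. It fell by 1.68 on the log2 scale, 3.20-fold (SE 0.18, limma adjusted p = 5.42e-05), to a level near the sham mean of -1.76 ± 0.238. Within slide 1 the difference was -1.61 with an adjusted p of 0.0445. ASMM10P023343 was at -0.30 to 0.24 in I/R and -1.72 to -1.35 in IPC, with sham lower still at -2.11 ± 0.104. Its difference was -1.52 ± 0.0999 (SE), 2.88-fold (adjusted p = 7.14e-07), and it was smaller within slide 1, at -1.31 (adjusted p = 0.00472). These 4 calls held in all 28 alternatives.

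**Figure D4:**
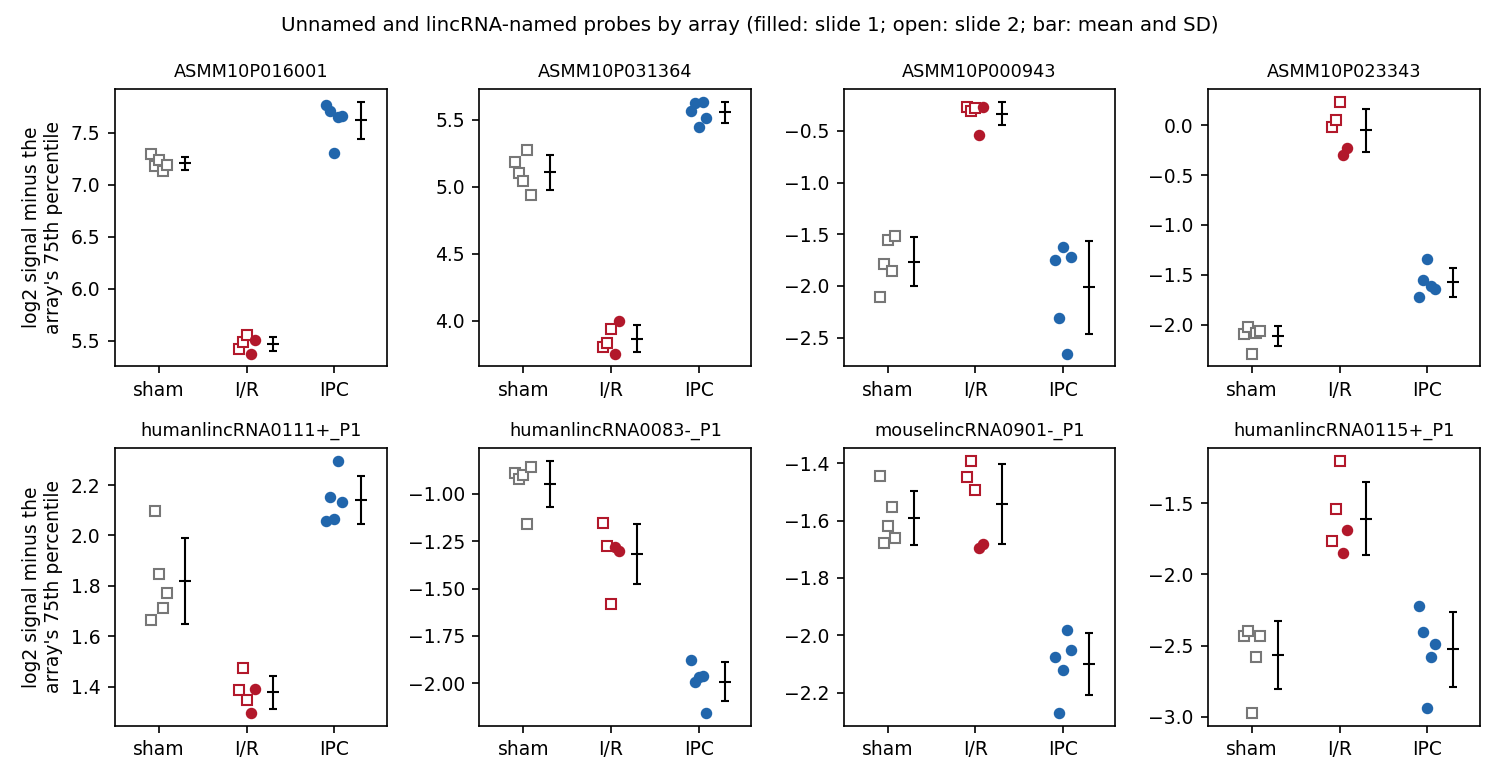
Log2 signal minus the array's 75th percentile on every array of the sham, I/R and IPC groups for the 2 largest rises and 2 largest falls among unnamed probes well above background on all 10 I/R and IPC arrays (top) and 4 lincRNA-named probes (bottom); filled circles are slide 1, open squares slide 2, and bars give mean and SD. In all 8 panels the 5 IPC arrays lie apart from the 5 I/R arrays. This was required of the top probes and known for the bottom 4 when they were picked.

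A few probes were seen in 1 group only. On all 5 IPC arrays and no I/R array, 26 probes were well above background. Their lower bound, the IPC mean against the higher of the dimmest level above background on each I/R array and the probe's own signal, reached 2.18-fold at most, with 1 of the 26 at 2-fold or more. That probe stood at -1.94 ± 0.145 in IPC and was not well above background in I/R or sham. The reverse, signal throughout I/R and on no IPC array, held for 5 probes, 2 of them with a bound of at least 2-fold. The highest bound was 2.66-fold, for a probe at -1.90 ± 0.149 in I/R that was not well above background in IPC or sham. Both probes entered the test only through the group in which they were bright, so no p is given for them. These counts rest on single arrays: the 26 became 72 without I/R array 4, 49 without I/R array 5 and 41 without IPC array 4, and the 5 became 12 without I/R array 3.

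Long intergenic non-coding RNAs (lincRNAs) are transcripts from between protein-coding genes that are not translated into protein, and some act on chromatin or on other RNAs. The array names 1836 probes as lincRNAs, of human, mouse or exon sets, and 436 of them (23.7%) were bright enough to test, against 57.4% of all probes. Of the 436, 12 passed (2.75%), 2 higher and 10 lower in IPC, against 7.86% of all tested probes (3.48% higher, 4.38% lower). Over the 436, called or not, the median IPC minus I/R difference was 0.07, against 0.01 over all tested probes. The class as a whole thus did not lean the way of its calls. The 436 were dim, with a median I/R level of -1.88 against -0.50 over all tested probes, and had a median SE of 0.233 against 0.103. By set, 8 of 243 human-named, 3 of 161 mouse-named and 1 of 32 exon probes passed. The human-named probes are listed by the mouse array under that name, and which mouse transcript each one binds is not given in the files.

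In this class humanlincRNA0111+_P1 rose most. Its IPC levels were 2.06, 2.15, 2.07, 2.30 and 2.13 and its I/R levels 1.38, 1.47, 1.35, 1.30 and 1.39, with all IPC arrays higher. The difference was 0.76 ± 0.0771 (SE), 1.70-fold (limma adjusted p = 3.36e-05), and 0.80 within slide 1 (adjusted p = 0.00977). Sham arrays lay between the groups on average, at 1.82 ± 0.171. The other rise, that of MM9LINCRNAEXON10136+_P1, was 0.29 ± 0.0777 (SE; adjusted p = 0.0336), from -1.17 to -0.88, and was kept in 13 of 28 alternatives. Within slide 1 it was 0.38 and did not pass (adjusted p = 0.0927).

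Among the falls, humanlincRNA0083-_P1 was the steadiest. It was at -2.16 to -1.87 in IPC and -1.58 to -1.16 in I/R, with no overlap. It fell by 0.67 on the log2 scale, 1.59-fold (SE 0.0822, limma adjusted p = 0.000172), by a like amount within slide 1 (-0.70, adjusted p = 0.0145), and the call was kept in all 28 alternatives. Its sham level was -0.95 ± 0.121, so that IPC lay further from sham than I/R did. For mouselincRNA0901-_P1 the IPC arrays, from -2.27 to -1.98, lay below I/R (-1.70 to -1.39) and sham (-1.68 to -1.44), and the fall was 0.56 in size (difference -0.56, adjusted p = 0.000341). Within slide 1 it was -0.41 and did not pass (adjusted p = 0.0629).

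The largest fall in size, that of humanlincRNA2350-_P1, from -2.22 in I/R to -3.22 in IPC (SE 0.212, adjusted p = 0.0089), differed by slide. I/R arrays 1 to 3 read -1.95 to -1.76, while I/R arrays 4 and 5 read -2.88 and -2.61, next to the highest IPC array at -2.92. The difference was -1.35 against the other slide and -0.48 within slide 1, where it did not pass (adjusted p = 0.248), and the probe was above background on 3 of 5 IPC arrays. humanlincRNA0115+_P1 fell from -1.61 ± 0.255 to -2.53 ± 0.266, by 0.92 on the log2 scale (adjusted p = 0.00171), with -0.76 within slide 1 (adjusted p = 0.083). humanlincRNA1841-_P1 went the other way: its difference of -0.76 (adjusted p = 0.0241) was -1.12 within slide 1 (adjusted p = 0.00472). I/R array 3, on the other slide, read -2.82, inside the IPC range of -2.96 to -2.72, and the probe was above background on 4 of 5 I/R arrays.

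The remaining 5 falls were smaller. humanlincRNA1563+_P1 differed by -0.53 (adjusted p = 0.0405), with overlapping groups. humanlincRNA1172-_P1 (-0.28, 0.0458), mouselincRNA0640-_P1 (-0.27, 0.0496), humanlincRNA0324-_P1 (-0.25, 0.0215) and mouselincRNA0344-_P1 (-0.24, 0.0478) had groups that did not overlap. These 5 lost their call within slide 1, where their adjusted p was 0.179 to 0.377. The last pair were among the brightest lincRNA-named probes that changed: humanlincRNA0324-_P1 had a mean of 6.66 in IPC and 6.91 in I/R, and mouselincRNA0344-_P1 ranged from 6.24 to 6.57 in IPC and 6.60 to 6.79 in I/R. Leaving out 1 array gave 5 to 14 lincRNA-named calls, with 5 without I/R array 2, 6 without I/R array 5 and 6 without IPC array 4 or 5. On slide 1, 9 of the 436 passed, 1 higher and 8 lower, against 2.54% of all tested probes (1.34% higher, 1.2% lower). With slide as a block 18 of the 436 passed, 2 of them higher, against 7.29% of all tested probes (4.46% higher, 2.83% lower). The gap to all tested probes thus depended on the setting.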

How the data were processed

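Liver RNA was labelled with Cy3 after random-primed amplification, per the labels' protocols. The deposited files give spot intensities, per the file headers from Agilent Feature Extraction 11.0.1.1 and an mm9 design, and their 0 or 1 flags mark spots. How the software corrected background for its processed signal is not given in the sources used here.

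Control spots, 300 negative-control spots and outlier spots (13 to 40 per array) were left out, and spots of 1 probe averaged, giving 60915 probes. Processed signals were put on the log2 scale and each array's 75th percentile was subtracted. A probe had to be well above background on 5 or more of 15 arrays, with an unmarked spot on each, and was tested with limma 3.58.1 in R 4.3.3: a mean per group over 15 arrays (12 residual degrees of freedom), eBayes, and Benjamini-Hochberg adjustment over all tested probes. Every adjusted p is limma's. The main fit was tried on simulated data with independent noise, the same SD in every group and no slide effect. That trial therefore does not cover the slides or the unequal spread of these arrays.

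Genes come from RefSeq accessions (15 of 15 matched), promoters from RefSeq on GRCm38.p6. The text names all 15 genes, called or not, the 2 unnamed probes with the largest rise and fall among those measured on all 10 arrays with groups apart, the 10 largest called rises and falls among lincRNA-named probes (all 12), and, without ID, the probe with the highest bound in each direction. The 4 lincRNA-named probes plotted were picked after their values were seen. Members and lists were chosen with earlier results of these data known. The number of arrays limits precision.

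Alternatives were slide as a fixed or random block, slide 1 alone, the 10 arrays alone, a replicate block, quantile, median and detected-probe scaling, normexp (offset 50, on median signals, since the files have no mean signal), 2 filters, eBayes with trend, and leaving out each array. With slide as a fixed block the IPC minus I/R difference equals that within slide 1, and only its error differs. Averaging I/R arrays 1 and 2 was added after the data were seen. Figures were drawn with matplotlib 3.10.9.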

Additional observations from a re-analysis of the deposited data

Results flagged for a closer look

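A single array stood apart from the other 4 of its group in 6 of 111 groups of values looked at, where chance alone gives about 5.55. In IPC, array 3 was low for ASMM10P016001, at 7.31 against 7.65 to 7.77 on the others, and for the Pgk1 control spots at the 3′ end, at 7.33 against 7.45 to 7.47. IPC array 5 was low for humanlincRNA0324-_P1, at 6.55 against 6.67 to 6.71. In I/R, array 4 was low for ASMM10P000943, at -0.54 against -0.31 to -0.26. In sham, array 3 was low for ASMM10P023343, at -2.29 against -2.10 to -2.03, and array 4 for humanlincRNA0083-_P1, at -1.16 against -0.92 to -0.86. The IPC minus I/R differences of these 5 array probes kept their direction in all alternatives run.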

How the results depend on the processing

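Called probes numbered 2750, and 1804 with the 10 arrays alone, 888 within slide 1, 1397 under median scaling, 1832 with no filter on dim probes, and 1734 with the replicate block. Numbers shared between groups are not known to pair arrays: same-numbered I/R and IPC arrays had deviations correlated from -0.367 to 0.284, so that the block stands here as an alternative alone. The 2 named calls became 4 with slide as a block and 1 with each of the 10 arrays alone, slide 1 alone, the replicate block, median scaling, no filter, and I/R arrays 1 and 2 averaged. Leaving out 1 array gave 1 to 2. The 12 lincRNA-named calls became 7 with slide as a random block, 7 with I/R arrays 1 and 2 averaged, 6 with the replicate block and 6 under median scaling, and 5 to 14 without 1 array. Calls of at least 2-fold, 52, became 79 with slide as a block, 14 with normexp, 83 with no filter and 23 with a filter on all 10 arrays, and were 48 to 98 without 1 array. The counts of probes above background in 1 group only ranged without 1 array from 26 to 72 for IPC and from 5 to 12 for I/R. No called gene or probe that the text names or describes singly changed sign; the signs of the other called probes under the alternatives were not tabulated. Uncalled genes did: Ppia to -0.0135, Hprt to 0.0561, Gusb to 0.0622 and B2m to -0.112, each with slide as a block and within slide 1; Hprt to 0.0180 with slide as a random block and 0.0194 with normexp; B2m to -0.0521 with a random block, -0.0505 under quantile normalization, -0.0481 under median scaling and -0.0151 with I/R arrays 1 and 2 averaged; Nono to -0.0521 under median scaling; and Gapdh to -0.0305 under quantile normalization and -0.0215 under median scaling. Without 1 array, Nono ranged from -0.0297 to 0.0415, Hprt from -0.0570 to 0.00494 and B2m from -0.0173 to 0.0603. Of 556 values of called genes and probes under alternatives, 421 kept the call and 135 did not. The cause of these changes was not tested. Under normexp, dim probes differ less by construction, since an offset is added. Signal over background limited the test to 57.4% of probes.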
